A study of Saccharomyces cerevisiae with 9 samples.

Results

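The genes for the proteins of the cytosolic ribosome of the budding yeast Saccharomyces cerevisiae were followed across 9 RNA-seq libraries of 3 strains. Members were the gene rows whose standard symbol in the RefSeq annotation of build R64 is RPL, RPS or RPP followed by a digit, with or without a copy letter A or B, and 138 of 6629 rows matched. The match RPP1 (YHR062C) encodes a subunit of ribonuclease P and not a ribosomal protein, so it was set apart, which left 137 genes. Of these, 76 encode proteins of the large (60S) subunit, 56 encode proteins of the small (40S) subunit and 5 encode the acidic stalk proteins of the 60S subunit. The set holds 59 pairs of paralogues (118 genes) and 19 single-copy genes, of which 10 are 60S genes, 8 are 40S genes and the remaining gene is RPP0.

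The series concerns Yet3, a membrane protein of the endoplasmic reticulum, and sterol synthesis at contacts between organelles. All strains were auxotrophs carrying HISDel1, LEU2Del0, MET15Del0 and URA3Del0, and all carried the nourseothricin resistance marker NATR. The YET3 overexpression strain had the TEF promoter in front of the gene (NATR::TEFpr-YET3), the YET3 deletion strain had the gene replaced by the marker (DelYET3::NATR), and the control strain had the marker at the HO locus (HO::NATR). Cells of each strain were sampled during exponential growth in SD medium, with 3 libraries of each strain, and the labels do not say whether the 3 came from separate cultures. The p-values therefore cover the spread among these libraries alone, and that spread may be technical.

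A ribosome needs equal numbers of its proteins, and growing yeast spends a large part of its transcription on the genes that encode them. Most of these genes are switched together by Rap1, Fhl1, Ifh1 and Sfp1, which answer to nutrient and stress signalling through TORC1 and protein kinase A. Many exist as pairs of near-identical copies left by an ancient duplication of the genome, and the copies of a pair can be read at very different levels.

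Library totals lay between 223189 and 1634021 counts. YET3 itself, which checks the labels, stood at 2261, 2029 and 1341 CPM (counts normalised to library size with TMM factors) in the overexpression libraries, at 728, 328 and 640 CPM in the libraries labelled deletion, and at 477, 477 and 479 CPM in the control libraries. The libraries labelled deletion thus kept counts at the deleted gene (1231, 216 and 240), against their label. In CPM, deletion 1 and deletion 3 lay above every control library and deletion 2 lay below. Every direction given for the libraries labelled deletion carries that limit. Among the libraries, overexpression 3, deletion 1 and deletion 3 (the last 2 as labelled) also stood apart over all genes, with scores of 38.9, 28.2 and 27.7 on a first principal component that held 47.6% of the variance, against scores between −25.7 and −10.6 for the other 6 libraries. Their share of counts at the 35S ribosomal RNA locus (the YLR154 rows, without RNH203) was 0.248, 0.416 and 0.197%, against 1.05 to 2.97% in the other 6. The main results are also given without these libraries, where deletion 2 is then the only library of its label.

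Ribosomal protein genes were a major component of every library. They took 26.1, 26.8 and 29.5% of the counts in the overexpression libraries, 29.2, 28.3 and 29.3% in the libraries labelled deletion, and 27.3, 25.7 and 25.9% in the control libraries. The 3 libraries labelled deletion all lay above the 3 control libraries, with means of 28.9 ± 0.528% and 26.3 ± 0.850% (SD, n = 3 each; exact two-sided permutation p = 0.1, the smallest that 3 against 3 allows). The overexpression mean of 27.4 ± 1.79% (SD, n = 3) overlapped the control range (exact permutation p = 0.5). With the 3 libraries apart left out, the overexpression mean was 26.4%, and deletion 2 still lay above each control library. These are shares of a total, so more ribosomal protein mRNA per cell and less of other mRNA cannot be told apart.

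Part of the difference was carried by RPL41A and RPL41B, which encode a very short basic peptide at the interface of the subunits. Together they took 1.87, 2.32 and 4.60% of the counts in the overexpression libraries, 4.48, 2.40 and 3.93% in the libraries labelled deletion, and 2.40, 1.89 and 1.93% in the control libraries. The high values were those of overexpression 3, deletion 1 and deletion 3, and deletion 2 lay beside control 1. The other members took 24.5 ± 0.337% of all counts, the pair's included, in the overexpression libraries, 25.3 ± 0.609% in the libraries labelled deletion and 24.2 ± 0.568% in the control libraries (SD, n = 3 each). On that total the libraries labelled deletion overlapped the control libraries (exact permutation p = 0.2). The pair's counts stayed in the total and lower the other shares where they are high. This overlap therefore does not show whether the other members differed. The 5 stalk genes took 1.10, 0.942 and 0.572% of the counts in the overexpression libraries, 0.651, 1.09 and 0.895% in the libraries labelled deletion, and 1.05, 1.06 and 1.15% in the control libraries, so their lowest shares fell in the same 3 libraries.

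**Figure D1:**
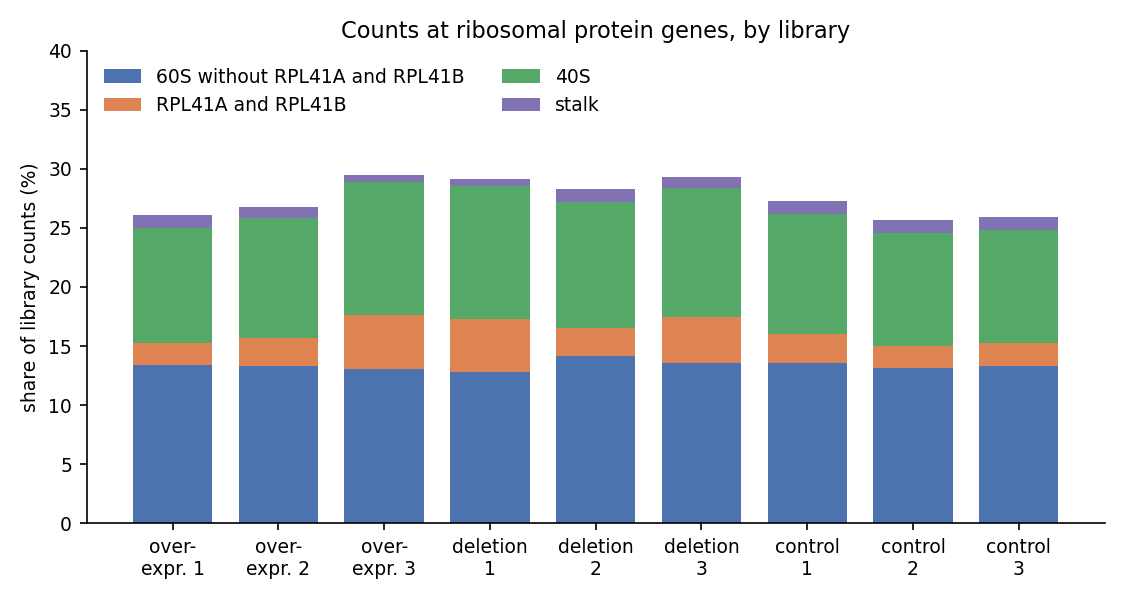
Share of each library's counts (%, y axis) at the ribosomal protein genes, stacked by subunit with RPL41A and RPL41B drawn apart, for the 3 libraries of each strain (x axis). The full bars run between 25.7 and 29.5%, and the RPL41 band is widest in overexpression 3, deletion 1 and deletion 3.

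The members ranked among the most abundant messages of these cells. All 137 passed the filter on low counts and none was at 0 in any library, with single values between 9 and 36638 counts. The median member had 1508 CPM in the control libraries, against 55.5 CPM for the median of all 5090 genes tested, and 58 of the 100 rows with the highest control CPM were members. Per kilobase of coding sequence, the mean level over the 9 libraries was highest for RPL41A (195000 CPM per kb), RPL41B (176000 CPM per kb) and RPL39 (35220 CPM per kb), which encodes a short protein lining the exit tunnel. They were followed by RPS31, which encodes a fusion of ubiquitin to a 40S protein, at 21780 CPM per kb and RPS12 of the 40S beak at 17480 CPM per kb. The lowest levels were those of RPL15B (117 CPM per kb), RPS9A (240 CPM per kb), RPL22B (443 CPM per kb), RPS28B (475 CPM per kb) and RPL7B (520 CPM per kb), each the lesser copy of its pair. The sources used here do not say in which window reads were counted, and levels per kilobase of very short genes such as RPL41A depend on it.

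The RPL41 pair shows how little separates the copies of some pairs, and how far a count can be assigned to a single copy. The whole coding sequences, on the minus strand of chromosome IV at 130407 to 130484 for RPL41A (YDL184C) and 221724 to 221801 for RPL41B (YDL133C-A), are printed with the base that differs in capitals.
RPL41A: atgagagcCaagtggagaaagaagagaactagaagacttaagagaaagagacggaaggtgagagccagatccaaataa
RPL41B: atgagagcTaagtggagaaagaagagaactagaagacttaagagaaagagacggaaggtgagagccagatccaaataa
The copies differ at 1 of 78 bases and encode the same peptide. RPL41A held 50.8, 53.6 and 52.3% of the pair's counts in the overexpression libraries, 50, 51.7 and 59.2% in the libraries labelled deletion, and 50.7, 51.9 and 48.7% in the control libraries. Both copies took similar shares in 8 libraries, and the library labelled deletion 3 had the highest share of copy A. The sources used here do not say how reads that match both copies were counted, so values for a single copy are uncertain for the most similar pairs.

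Members kept their relative levels in 6 of the 9 libraries and spread widely in the other 3. The standard deviation over the 137 members of the log2 ratio to the control mean was 0.157, 0.145 and 0.712 in overexpression 1, 2 and 3, and 0.643, 0.109 and 0.608 in the libraries labelled deletion 1, 2 and 3, against 0.109 to 0.152 in the control libraries. Each control library is part of the mean it is set against, which narrows its spread. In overexpression 3, deletion 1 and deletion 3, 46.0, 47.4 and 38.0% of the members lay more than 0.5 from the control mean on the log2 scale, and at most 1.46% did so in each other library. Among all 2065 genes with a mean level at or above that of the lowest member (RPL15B, 72.1 CPM), members included, the shares in the same 3 libraries were 54.3, 49.7 and 47.4%. These lay above the shares of the members. The 2065 genes are not matched to the members in level, since the median member had 1508 CPM in control, and their shares also lay between 1.11 and 13.4% in the other 6 libraries. The range of CPM over the 9 libraries exceeded 2-fold for 54 members, and for 2 members without these 3 libraries.

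**Figure D2:**
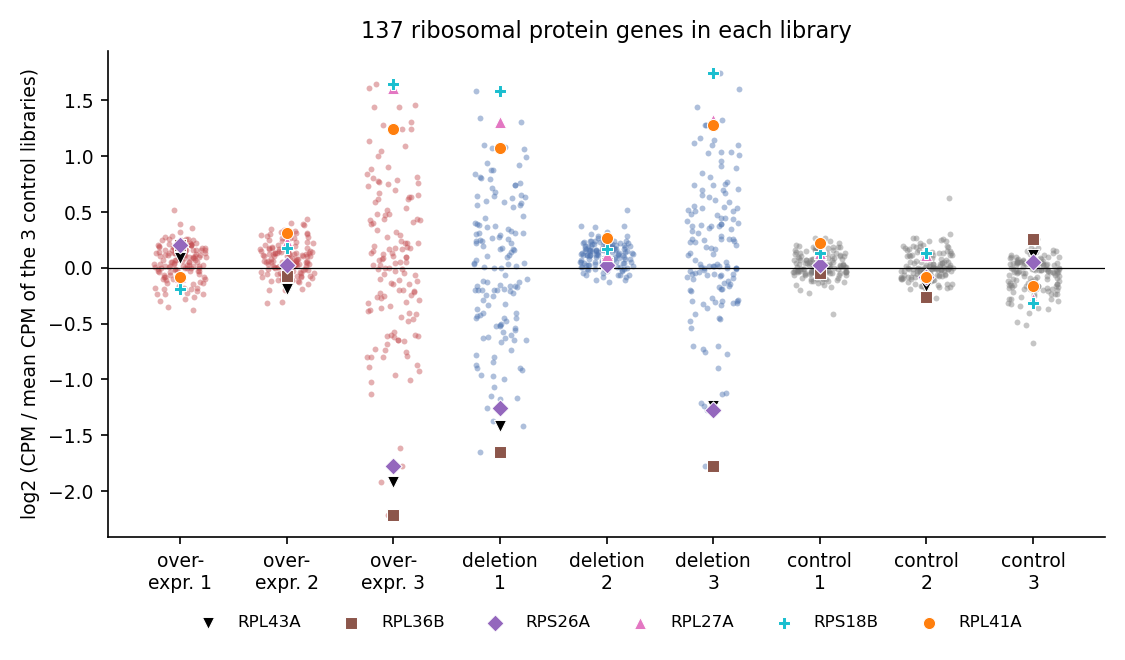
Log2 ratio of each member's CPM to the mean of the 3 control libraries (y axis) in each library (x axis), with 1 point per gene and 6 genes marked by symbols. Points lie between −0.672 and 0.630 in 6 libraries and run between −2.21 and 1.75 in overexpression 3, deletion 1 and deletion 3, where RPL36B, RPL43A and RPS26A sit low and RPS18B, RPL27A and RPL41A sit high.

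RPL36B and RPS18B stood at the edges of that spread. RPL36B, which encodes a 60S protein, had 4543, 3745 and 851 CPM in the overexpression libraries, 1257, 4057 and 1151 CPM in the libraries labelled deletion, and 3824, 3293 and 4730 CPM in the control libraries. RPS18B, which encodes a protein of the 40S head, had 759, 982 and 2718 CPM in the overexpression libraries, 2597, 974 and 2913 CPM in the libraries labelled deletion, and 950, 954 and 699 CPM in the control libraries. RPL36B was low and RPS18B was high in overexpression 3, deletion 1 and deletion 3, and the other 6 libraries lay within 3293 to 4730 CPM for RPL36B and 699 to 982 CPM for RPS18B. RPL36B had the widest range of all members, 5.56-fold between its highest and lowest library. Across the 137 members the Spearman correlation of the log2 ratio to the control mean with the GC content of the coding sequence was −0.49, −0.49 and −0.36 in overexpression 3, deletion 1 and deletion 3, and lay between −0.42 and 0.49 in the other 6 libraries. The genes of a library share its depth and preparation, and the part of GC content or of the ribosomal RNA share in these levels was not tested.

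YET3 overexpression against control asks what a surplus of Yet3 does to expression, and no ribosomal protein gene passed the test. By edgeR's quasi-likelihood test with Benjamini-Hochberg adjustment, 0 of 137 members had an adjusted p under 0.05, where 43 of all 5090 genes (0.845%) did, and the smallest adjusted p of a member was 0.703. By DESeq2, which also called 0, 2 members had an unadjusted p under 0.05. By edgeR no member did, against 7.11% of all genes. That count of 0 was 15 without overexpression 1 and at most 2 without any other single library of either strain. Without the 3 libraries apart it was 1 (0.73%, against 12.5% of all genes). The median member log2 fold change was 0.08, against 0.00 over all genes, with 87 members above 0 and 50 below. The median was 0.03 for the 60S genes, 0.11 for the 40S genes and −0.30 for the stalk genes. Without overexpression 3, deletion 1 and deletion 3, the test again called 0 members, where it called 166 of 5262 genes (3.15%), and the median member log2 fold change was 0.08 with 102 members above 0.

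The members furthest above control in that comparison were RPL27A, RPS18B, RPS17A, RPL10 and RPS17B. RPL10, which encodes a protein that joins the 60S subunit late in its assembly, had 1923, 2252 and 5312 CPM in the overexpression libraries and 1800, 2328 and 1750 CPM in the control libraries. RPS17A, which encodes a protein of the 40S head, had 1173, 1527 and 3103 CPM in the overexpression libraries and 1154, 1363 and 875 CPM in the control libraries. In both genes overexpression 3 lay far above the rest. The other overexpression libraries lay within the control range for RPL10, and for RPS17A overexpression 1 lay within it and overexpression 2 just above it. The log2 fold change was 0.69 (SE 0.42) for RPL10 and 0.77 (SE 0.36) for RPS17A, with adjusted p = 0.751 and 0.703 by edgeR's quasi-likelihood test. Without the 3 libraries apart the values were 0.09 and 0.24.

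RPL43A, RPL36B, RPP2B, RPP1A and RPL37A lay furthest below control. RPL43A, which encodes a zinc-binding 60S protein, had 3651, 3012 and 906 CPM in the overexpression libraries and 3530, 3063 and 3710 CPM in the control libraries. Here too the low value was that of overexpression 3 alone, and the log2 fold change was −0.44 (SE 0.45, edgeR adjusted p = 0.861) and −0.04 without the 3 libraries apart. The groups did not overlap for 12 members, 11 higher (8.03% of 137) and 1 lower (0.730%), where 17% of all genes did not overlap, 8.51% of them higher and 8.47% lower. With single libraries left out, where fewer libraries have to separate, 16 to 37 members were higher and 1 to 7 lower, the most in each direction without overexpression 1. There 27.0% of members were higher, against 16.6% of all genes. The share of members higher also lay above that of all genes without overexpression 3, control 1 or control 2. It lay slightly below without overexpression 2 (11.7 against 12.4%) or control 3 (11.7 against 12.1%). Of all genes 11.9 to 16.4% were then lower. With no library left out, the gene on the low side was RPP1A, with 2119, 1780 and 1444 CPM in the overexpression libraries and 2193, 2174 and 2264 CPM in the control libraries. Its log2 fold change was −0.31 (SE 0.22, edgeR adjusted p = 0.783), or −0.18 without the 3 libraries apart. Those on the high side included RPL30, RPL11B, RPL33A, RPL40B and RPS28B, named after their values were seen. RPL30, whose protein binds its own transcript and blocks its splicing, had 4307, 4472 and 5630 CPM in the overexpression libraries and 4226, 4133 and 4106 CPM in the control libraries, a log2 fold change of 0.21 (SE 0.20, edgeR adjusted p = 0.858), or 0.08 without the 3 libraries apart.

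The libraries labelled deletion were set against control for the effect of losing Yet3, but only deletion 2 had less YET3 than control. They showed wider differences than the overexpression libraries, of which none passed the test. By edgeR's quasi-likelihood test 0 of 137 members had an adjusted p under 0.05, where 1 of all 5090 genes (0.0196%) did, and the smallest adjusted p of a member was 0.400. By edgeR 18 members had an unadjusted p under 0.05 (13.1%, against 11.9% of all genes) and by DESeq2 21 did, with 0 called. All 18 lay above control and 14 of them were 40S genes, among them RPS17B, RPS18A, RPS18B, RPS27A and RPS28B. This count moved widely with single libraries: it was 39 without deletion 2, 9 without deletion 1, 5 without deletion 3, and 9, 6 and 2 without control 1, 2 and 3. Without the 3 libraries apart, where deletion 2 stands alone, the log2 fold changes of the 18 lay between 0.10 and 0.54. The median member log2 fold change was 0.11, against 0.01 over all genes, with 81 members above 0. By subunit the median was 0.06 for the 60S genes, 0.22 for the 40S genes and −0.25 for the stalk genes. Deletion 2 alone against control, with the 3 libraries apart left out, gave a median of 0.13, with 116 members above 0, no member called and 5 of 5262 genes called (0.095%). That fit takes the lone library to vary as the libraries of the other strains do.

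The groups did not overlap for 31 members, of which 30 were higher (21.9% of 137) and RPL32 was lower, where 19.4% of all genes did not overlap, 9.41% of them higher and 10% lower. Among the 40S genes 19 of 56 (33.9%) were higher without overlap, and among the 60S genes 11 of 76 were higher. With single libraries left out, 32 to 48 members were higher (23.4 to 35.0%) and 1 to 34 lower, the most in each direction without deletion 2. Of all genes 12.6 to 25.1% were then higher and 12.9 to 24.3% lower, again the most without deletion 2. Deletion 2 alone lay above all control libraries for 72 members (52.6%) and below them for 2, against 24.2% and 23.9% of all genes. RPS28B encodes a 40S protein near the exit site, and its message is known to be destabilised by that protein. It had 81.8, 85.1 and 127 CPM in the overexpression libraries, 132, 98.6 and 141 CPM in the libraries labelled deletion, and 61.9, 69.9 and 74.7 CPM in the control libraries. All 6 libraries of the altered strains lay above all 3 control libraries, at a level that is the second lowest of the members in control. The log2 fold change of the libraries labelled deletion was 0.86 (SE 0.25) and that of the overexpression libraries was 0.51 (SE 0.26), with adjusted p = 0.400 and 0.741 by edgeR's quasi-likelihood test, and both comparisons share the control libraries. Without the 3 libraries apart the values were 0.54 and 0.30.

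RPS18B, RPL27A, RPS17B, RPL41A and RPS18A had the highest log2 fold changes, at 1.31 (SE 0.47), 1.01 (SE 0.42), 0.97 (SE 0.34), 0.93 (SE 0.34) and 0.93 (SE 0.36), each with adjusted p = 0.400 by edgeR's quasi-likelihood test. The same 5 values were 0.15, 0.10, 0.37, 0.27 and 0.22 without the 3 libraries apart. RPL27A, which encodes a 60S protein, had 2987, 1300 and 3022 CPM in the libraries labelled deletion and 1317, 1301 and 994 CPM in the control libraries. RPS17B had 2310, 1185 and 1873 CPM in the libraries labelled deletion and 1064, 871 and 800 CPM in the control libraries. Deletion 2 overlapped control for RPL27A and lay just above it for RPS17B.

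At the other end stood RPL36B, RPL43A, RPS26A, RPL37A and RPP2A, between −0.87 and −0.57, and between −0.06 and 0.11 without the 3 libraries apart. RPS26A, which encodes a 40S protein at the channel where the message leaves, had 1833, 4460 and 1809 CPM in the libraries labelled deletion and 4453, 4137 and 4550 CPM in the control libraries. RPL37A, which encodes a zinc-binding 60S protein, had 917, 2221 and 946 CPM in the libraries labelled deletion and 2025, 1857 and 2343 CPM in the control libraries. In both genes the low values were those of deletion 1 and deletion 3, with deletion 2 inside the control range. The log2 fold changes were −0.70 (SE 0.45, edgeR adjusted p = 0.469) for RPS26A and −0.61 (SE 0.42, edgeR adjusted p = 0.497) for RPL37A. RPL32, which encodes a 60S protein, had 1666, 3623 and 2723 CPM in the libraries labelled deletion and 3667, 3731 and 3811 CPM in the control libraries (log2 fold change −0.49, SE 0.30, edgeR adjusted p = 0.454), a value that shrank to −0.04 with the 3 libraries apart left out.

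**Figure D3:**
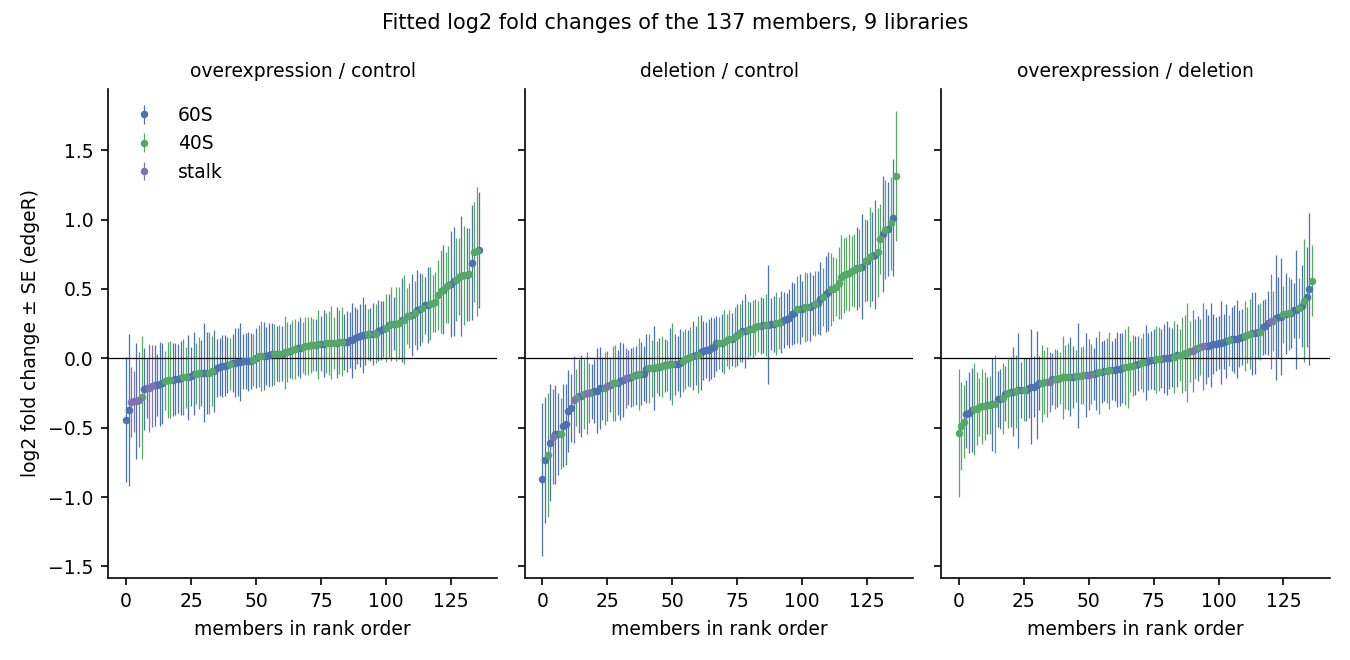
Fitted log2 fold changes with their standard errors (y axis) of the 137 members in rank order (x axis) in each comparison, coloured by subunit. Values run between −0.44 and 0.78 in the left panel, −0.87 and 1.31 in the middle panel and −0.54 and 0.56 in the right panel, and all 5 stalk genes lie below 0 in both comparisons with control.

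YET3 overexpression set against the libraries labelled deletion, which kept YET3 counts, gave the narrowest range over the 9 libraries. By edgeR's quasi-likelihood test 0 of 137 members had an adjusted p under 0.05, where 37 of 5090 genes (0.727%) did. By DESeq2 1 member had an unadjusted p under 0.05, and by edgeR 1 did (0.73%, against 6.76% of all genes). The count by edgeR was 21 without overexpression 3, 12 without deletion 2 and at most 1 without any other single library of either strain. Shares over all genes are not given here for such counts with single libraries left out, in any comparison. The median member log2 fold change was −0.05, against −0.02 over all genes, with 57 members above 0, and without the 3 libraries apart it was −0.03, with 0 members and 76 of 5262 genes called (1.44%). RPS24B, which encodes a 40S protein, had the highest value at 0.56 (SE 0.26, edgeR adjusted p = 0.718), or 0.22 without the 3 libraries apart. It had 706, 713 and 536 CPM in the overexpression libraries and 331, 608 and 389 CPM in the libraries labelled deletion, and deletion 2 lay above overexpression 3. RPS18B (−0.54), RPS7B (−0.49), RPS22B (−0.46), RPL39 (−0.40) and RPL27B (−0.39) had the lowest log2 fold changes, and RPL36B, RPL31A, RPS26A and RPL32 followed RPS24B at 0.50, 0.44, 0.42 and 0.38. The 5 low values lay between −0.23 and −0.13 without the 3 libraries apart, and the 4 high ones between 0.01 and 0.17.

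Only 6 members (4.38%) had groups that did not overlap in that contrast, against 9.49% of all genes. With single libraries left out the count was 8 to 37, the highest without overexpression 3 and 24 without deletion 2. The shares of all genes higher and lower were likewise largest without overexpression 3, then without deletion 2. Without overexpression 3, 10.9% of members were higher, against 14.9% of all genes, and the share lower was slightly above that of all genes. Without deletion 2, 10.2% of members were higher and 10 members lower, against 11.6 and 12.6% of all genes. These counts are therefore not read as a shift of the members. With no library left out, RPL33A, RPS13 and RPS26B were higher in the overexpression libraries, and RPL1A, RPL42B and RPS10A were lower. RPL33A had 2074, 2199 and 2020 CPM in the overexpression libraries and 1403, 1957 and 1588 CPM in the libraries labelled deletion, a log2 fold change of 0.35 (SE 0.20, edgeR adjusted p = 0.817), or 0.13 without the 3 libraries apart. RPS10A, which encodes a protein of the 40S head, had 1212, 1586 and 1488 CPM in the overexpression libraries and 1945, 1626 and 1836 CPM in the libraries labelled deletion, a log2 fold change of −0.34 (SE 0.21, edgeR adjusted p = 0.836), or −0.22 without the 3 libraries apart.

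The stalk genes encode the base protein P0 and the acidic P1 and P2 proteins that hang from it and draw elongation factors to the ribosome. RPP0 had 3638, 2973 and 1571 CPM in the overexpression libraries, 1618, 3186 and 2915 CPM in the libraries labelled deletion, and 3024, 2938 and 3521 CPM in the control libraries. RPP2A had 1370, 1356 and 628 CPM in the overexpression libraries, 531, 1318 and 946 CPM in the libraries labelled deletion, and 1267, 1494 and 1367 CPM in the control libraries. Overexpression 3 and deletion 1 were the lowest libraries for RPP0 and RPP2A. RPP1B and RPP2B likewise had their lowest values in overexpression 3, at 764 and 1398 CPM, against 1506 to 1618 and 2370 to 2501 CPM in the control libraries. The log2 fold changes of the 5 genes lay between −0.32 and −0.20 for overexpression against control and between −0.57 and −0.14 for deletion against control, and none passed edgeR's test (adjusted p between 0.452 and 0.910). Without the 3 libraries apart the stalk medians were −0.01 and 0.02.

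The single-copy genes spread as the other members did. Their log2 ratio to the control mean lay beyond 0.5 for 9 of 19 genes in overexpression 3, 9 in deletion 1 and 5 in deletion 3, and for 0 in the other 6 libraries. The range over the 9 libraries exceeded 2-fold for 7 of them, among them RPL10 (3.40-fold) and RPP0 (2.32-fold), and RPS3 and RPS31 were among the steadiest. RPS3, which encodes a protein at the entry of the message channel, had 3940, 3852 and 3971 CPM in the overexpression libraries, 3426, 3944 and 3390 CPM in the libraries labelled deletion, and 3783, 3447 and 3917 CPM in the control libraries. RPS31 had 8898, 9817 and 10300 CPM in the overexpression libraries, 10090, 10310 and 11230 CPM in the libraries labelled deletion, and 10770, 8809 and 9737 CPM in the control libraries. All 9 libraries lay within a narrow band for both genes. RPL3, which encodes the large protein beside the peptidyl transferase centre, had its highest values in deletion 3 (8458 CPM) and overexpression 3 (6214 CPM), with the other 7 libraries between 4432 and 4845 CPM. RPL5, whose protein carries the 5S ribosomal RNA, had its lowest values in deletion 1 (1932 CPM) and overexpression 3 (2044 CPM), against 3120 to 3483 CPM in the other 7. RPS15, which encodes a protein of the 40S head, was low in the same libraries, at 892 CPM in deletion 1 and 989 CPM in overexpression 3, against 1445 to 1849 CPM in the other 7. RPL25 of the tunnel exit and RPS2 of the message entry site had log2 fold changes between −0.05 and 0.12 in the comparisons of either altered strain with control. The median over the 19 single-copy genes was 0.10 for overexpression and 0.11 for deletion against control, and 0.07 and 0.12 without the 3 libraries apart.

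The copies of a pair were seldom read equally. In the control libraries the median pair had a 1.84-fold difference between its copies, 29 of 59 pairs differed by more than 2-fold and 14 by more than 4-fold. Copy A led in all 3 control libraries for 32 pairs, copy B led for 24 and the lead was mixed for RPL41, RPS16 and RPS29. The widest gap was that of RPS28, where RPS28A exceeded RPS28B by 35.1-fold, followed by RPS9 (11.3-fold, copy B ahead), RPL15 (11.1-fold), RPL22 (10.1-fold), RPS25 (8.71-fold) and RPS14 (6.28-fold, each with copy A ahead). The same copy led in all 9 libraries for 44 of the 59 pairs. The copies encode identical proteins in 21 pairs, and coding identity lay between 68.9% for RPP1A and RPP1B and 99.4% for the RPL1 pair, with 39 pairs under 95%.

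**Figure D4:**
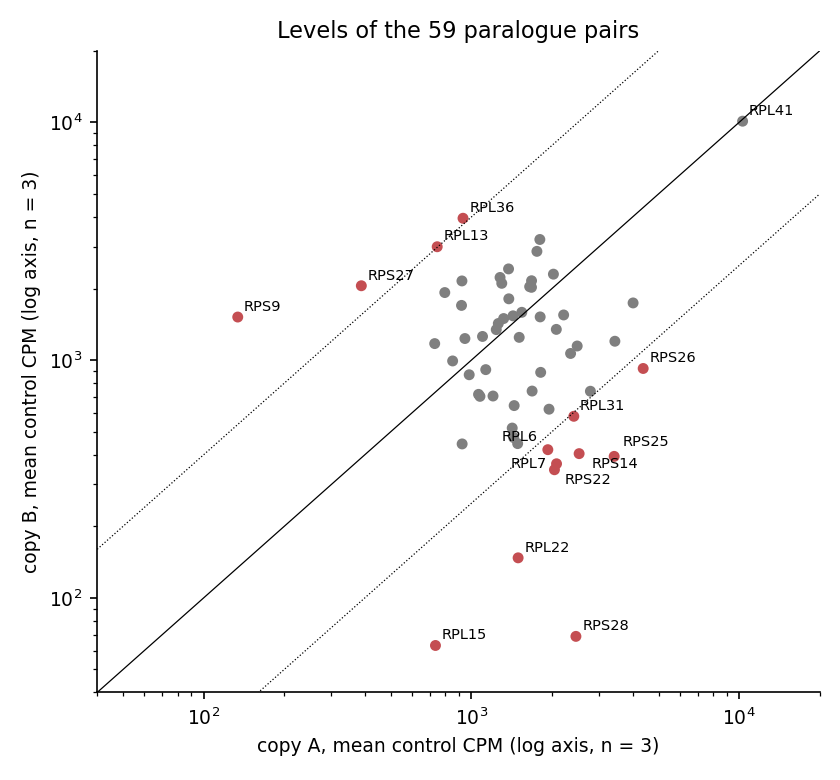
Mean control CPM of copy B (y axis, log scale) against copy A (x axis, log scale) for the 59 pairs, n = 3 libraries, with the solid line at equal levels and dotted lines at 4-fold. The 14 pairs beyond 4-fold are red and named, and RPS28, with a 35.1-fold gap, lies furthest from the line.

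The balance within pairs followed the same 3 libraries. Over the 59 pairs the median range of log2(A/B) was 0.90 across the 9 libraries, 0.37 without the 3 libraries apart and 0.27 within control. A range tends to widen with the number of libraries, so these values are not strictly alike. The balance lay more than 0.5 from the control mean in 27 pairs in overexpression 3, 32 in deletion 1 and 25 in deletion 3, and in 1, 0 and 0 pairs in overexpression 1, overexpression 2 and deletion 2. The leading copy differed from that of the control mean in 10, 11 and 10 pairs of those 3 libraries, and in 0 to 2 pairs of each of the others. The steadiest balances were those of RPL14, RPL35, RPS10, RPL18 and RPS23, which moved by 0.28 to 0.40 over all 9 libraries.

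RPL43 moved furthest. RPL43A held 74.9, 71.8 and 34.2% of the pair's counts in the overexpression libraries, 46.4, 71.8 and 48.4% in the libraries labelled deletion, and 73.5, 72.6 and 76.0% in the control libraries. Copy B led in overexpression 3, deletion 1 and deletion 3, and copy A led in the other 6 libraries. RPL43B had 1222, 1184 and 1739 CPM in the overexpression libraries, 1484, 1352 and 1559 CPM in the libraries labelled deletion, and 1269, 1156 and 1174 CPM in the control libraries, so that in those 3 libraries copy A was low and copy B was high. The mean log2(A/B) differed by −0.85 for overexpression against control (exact permutation p = 0.4) and by −1.16 for deletion against control (exact permutation p = 0.1, the smallest possible), where the groups did not overlap, though deletion 2 lay only just below the lowest control library. These differences were −0.05 and −0.17 without the 3 libraries apart.

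The coding sequences of RPL43A and RPL43B differ by enough to tell reads apart, and the last 90 bases of each (chromosome XVI, 654758 to 654847, plus strand, and chromosome X, 608769 to 608858, plus strand) are shown with the 10 differing bases in capitals. Both encode the same protein.
RPL43A: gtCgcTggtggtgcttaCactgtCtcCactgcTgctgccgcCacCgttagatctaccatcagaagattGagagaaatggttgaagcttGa
RPL43B: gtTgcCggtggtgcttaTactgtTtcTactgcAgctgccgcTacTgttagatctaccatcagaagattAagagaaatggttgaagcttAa
In the RPL36 pair, both copies were low in the 3 libraries apart, and their last 90 bases (chromosome XIII, 651821 to 651910, plus strand, for RPL36A and chromosome XVI, 75699 to 75788, minus strand, for RPL36B) differ at 2 bases.
RPL36A: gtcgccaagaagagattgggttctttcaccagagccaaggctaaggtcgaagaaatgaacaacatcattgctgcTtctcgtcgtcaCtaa
RPL36B: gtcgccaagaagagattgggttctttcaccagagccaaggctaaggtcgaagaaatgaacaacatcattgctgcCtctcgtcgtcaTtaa
RPL36A held 17.0, 19.4 and 39.8% of the pair's counts in the overexpression libraries, 30.0, 18.9 and 27.0% in the libraries labelled deletion, and 19.4, 22.7 and 16.0% in the control libraries. The 3 highest shares were again those of overexpression 3, deletion 1 and deletion 3. The summed CPM of the pair stood at a log2 ratio to the control mean of −1.79 in overexpression 3, −1.44 in deletion 1 and −1.63 in deletion 3, against −0.07 to 0.17 in the other altered libraries.

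In the remaining pairs the direction of the shift varied. RPS26A held 84.9, 81.2 and 58.5% of its pair's counts in the overexpression libraries, 72.5, 83.4 and 72.4% in the libraries labelled deletion, and 83.0, 80.1 and 84.6% in the control libraries. RPS27A, the lesser copy of a zinc-binding 40S protein, held 16.4, 16.6 and 27.2% in the overexpression libraries, 29.7, 17.3 and 26.1% in the libraries labelled deletion, and 16.6, 14.8 and 16.1% in the control libraries. RPS26 thus moved towards copy B and RPS27 towards copy A in the 3 libraries apart. RPS28A held 97.0, 96.9 and 95.2% in the overexpression libraries, 95.2, 96.7 and 91.2% in the libraries labelled deletion, and 97.8, 97.0 and 97.0% in the control libraries. For RPS28 the mean log2(A/B) differed by −0.95 for deletion against control (exact permutation p = 0.1, the smallest possible) and by −0.37 for overexpression against control (exact permutation p = 0.5), and by −0.26 and −0.14 without the 3 libraries apart. RPS25 and RPL37 had differences of −0.54 and −0.45 for overexpression against control, and RPL17 and RPL33 of −0.76 and −0.74 for deletion against control. They were −0.26 and −0.02 for RPS25 and RPL37 without the 3 libraries apart, and −0.31 and −0.16 for RPL17 and RPL33. For overexpression against deletion the differences with the largest size were those of RPS28 (0.58), RPL33 (0.52), RPS21 (−0.52), RPS24 (−0.44) and RPP2 (0.40), which were 0.12, 0.24, −0.20, −0.24 and 0.16 without the 3 libraries apart.

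The libraries of the 2 groups did not overlap in balance for 4 of 59 pairs (6.78%) when overexpression was set against control, for 7 (11.9%) when deletion was, and for 1 (1.69%) between overexpression and deletion. The 4 pairs were RPL12, RPL14, RPL18 and RPS4, with differences between −0.19 and 0.15. The 7 pairs were RPL17, RPL42, RPL43, RPS9, RPS24, RPS27 and RPS28, and the single pair was RPS24. Each had an exact permutation p of 0.1 in its comparison, the smallest that 3 against 3 libraries allows. A balance has no share over all genes to set beside these counts, so they are not read as a shift. These counts rest on few libraries: without the library labelled deletion 2 the second count was 35, without overexpression 3 the third was 13, and without control 2 the first was 14. With a library left out, fewer libraries have to separate. RPL22A held 88.2 to 91.5% and RPS14A 83.7 to 89.4% of their pairs' counts over all 9 libraries. RPL8A held 30.1, 26.0 and 37.8% in the overexpression libraries, 41.4, 27.5 and 31.9% in the libraries labelled deletion, and 30.3, 28.7 and 28.8% in the control libraries, with its highest shares in the 3 libraries apart.

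**Figure D5:**
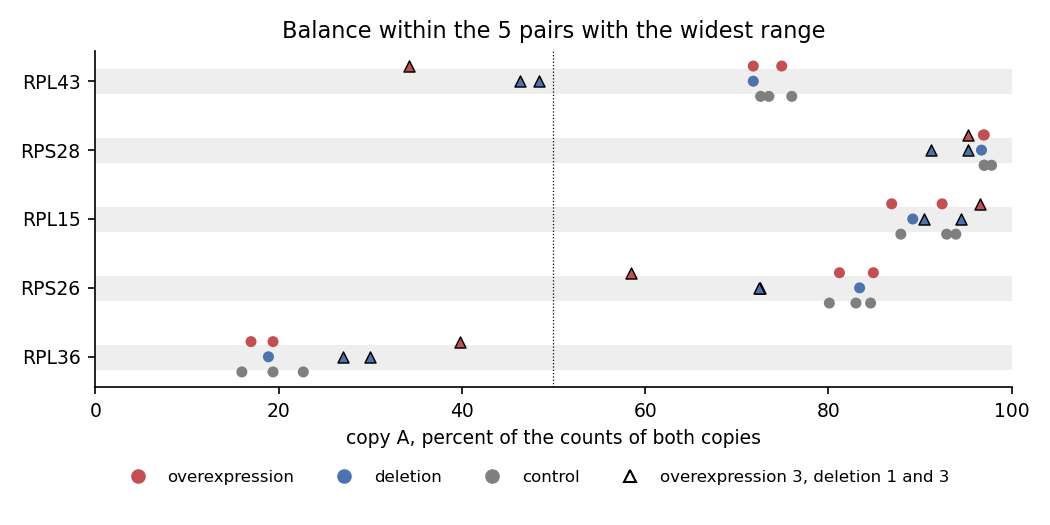
Share of a pair's counts held by copy A (%, x axis) in each library for the 5 pairs with the widest range of log2(A/B) (y axis), coloured by strain, with triangles for overexpression 3, deletion 1 and deletion 3. In RPL43 the triangles lie at 34.2 to 48.4% and the circles at 71.8 to 76.0%.

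Upstream of the genes, a core of the binding site of Rap1, the factor that opens most ribosomal protein promoters, was searched as ACCCNNACA on both strands between 450 and 151 bases before the start codon, with bases taken from the RefSeq genome of build R64. The letters occurred in the window of 47 of 137 members (34.3%), against 223 of 6006 protein-coding genes (3.71%) and 2 of 75 mitochondrial ribosomal protein genes. The share was 42.1% for the 60S genes, 25.0% for the 40S genes and 1 of 5 for the stalk genes. The windows of the pair with the widest shift are shown as examples, RPL43A from chromosome XVI, 653716 to 654015, and RPL43B from chromosome X, 607855 to 608154, both on the plus strand, with the motif in capitals.
RPL43A: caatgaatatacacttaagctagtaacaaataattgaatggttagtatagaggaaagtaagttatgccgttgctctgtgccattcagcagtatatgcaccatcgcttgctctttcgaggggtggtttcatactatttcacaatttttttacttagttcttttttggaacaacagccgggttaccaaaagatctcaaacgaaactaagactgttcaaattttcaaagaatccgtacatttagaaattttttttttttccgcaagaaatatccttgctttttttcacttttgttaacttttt
RPL43B: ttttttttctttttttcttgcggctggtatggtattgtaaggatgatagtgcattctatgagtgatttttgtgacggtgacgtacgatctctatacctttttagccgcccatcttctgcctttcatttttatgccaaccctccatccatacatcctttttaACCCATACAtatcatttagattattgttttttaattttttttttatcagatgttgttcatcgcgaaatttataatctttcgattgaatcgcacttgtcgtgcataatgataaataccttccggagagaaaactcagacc
The window of RPL43B holds 1 match and that of RPL43A none of these letters.

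No known regulator or partner of these genes passed the test. None of the 25 regulators tested of 28 listed, of the 12 chaperones that escort single ribosomal proteins, of the 35 translation factors tested of 36, of the 18 other ribosome-bound proteins or of the 76 mitochondrial ribosomal proteins passed edgeR's test in any of the 3 comparisons. RAP1 and FHL1 lay between 13.1 and 38.4 CPM in all libraries, with log2 fold changes between −0.08 and 0.32 against control. SFP1, an activator of ribosomal protein genes, had 10.6, 21.2 and 16.0 CPM in the libraries labelled deletion and 29.6, 29.4 and 26.4 CPM in the control libraries. All 3 lay below the control libraries, with 18, 14 and 6 counts behind them, and the log2 fold change was −0.95 (SE 0.39, edgeR adjusted p = 0.400). It was −0.45 without the 3 libraries apart, where deletion 2 stands alone. IFH1 and CRF1, a coactivator and a corepressor that compete for Fhl1, had at most 10 counts in any library and were not tested. HMO1, an architectural protein at these promoters, had log2 fold changes of −0.21 for overexpression (SE 0.20, edgeR adjusted p = 0.849) and −0.12 for deletion against control.

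On the ribosome itself, ASC1, which encodes the scaffold protein of the 40S head, had 2720, 2369 and 3429 CPM in the overexpression libraries, 2816, 2647 and 4010 CPM in the libraries labelled deletion, and 2415, 2459 and 2343 CPM in the control libraries. The libraries labelled deletion lay above control without overlap (log2 fold change 0.39, SE 0.23, edgeR adjusted p = 0.439), as did those of STM1, which encodes a clamp of idle ribosomes (0.30, SE 0.21, edgeR adjusted p = 0.493). The values were 0.14 for ASC1 and 0.10 for STM1 without the 3 libraries apart. Over the list of 18 ribosome-bound proteins the median for deletion against control was −0.17, with 8 above 0 and 10 below, and 0.09 without the 3 libraries apart. Of the 18, 5 were higher and 3 lower without overlap (44.4%), against 19.4% of all genes. For overexpression against control that list had a median of −0.06, and 0.07 without the 3 libraries apart. The median log2 fold change of the translation factors was 0.05 for overexpression and 0.12 for deletion against control, and that of the mitochondrial ribosomal proteins was −0.12 and −0.05. RPP1, the ribonuclease P gene that the symbol rule also matched, had 10 to 25 counts in the overexpression libraries, 8 to 36 in the libraries labelled deletion and 13 to 53 in the control libraries, with edgeR adjusted p between 0.906 and 0.992.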

How the data were processed

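Counts per gene, as deposited by the authors in 1 file per library, were used. Per the submitters' processing notes the authors used cutadapt, UMI-tools and build R64; these sources do not name the aligner, the counting window or the treatment of reads that match several genes. The last 2 rows of each file, which repeat the identifiers of HTB2 and HHT2, were left out, and 5956 of 6629 identifiers had a symbol in the RefSeq table of the same build. edgeR 4.0.16 in R 4.3.3 (filterByExpr with a minimum count of 10, TMM, quasi-likelihood fit of all 9 libraries with a coefficient per strain) was run on all 5090 genes that passed the filter, with Benjamini-Hochberg adjustment over all of them at 0.05; SE was taken as |log2 fold change| / √F. It was tested on simulated counts. DESeq2 1.42.0 and other scalings, filters and sets of libraries were alternatives. A pair's balance was log2((A + 0.5)/(B + 0.5)) of the counts, with 1 count worth 0.612 to 4.48 CPM, for pairs with at least 20 counts. Exact permutation tests were two-sided and ran in scipy 1.17.1. Coding and protein identities came from Biopython 1.88 alignments.

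Genes were named by rule: the 5 highest and 5 lowest log2 fold changes and the 5 largest balance differences of each comparison, the 5 highest and lowest levels per kilobase, and listed stalk, single-copy, paired and regulator genes. A few members that the rule names are not reported here. The members and lists were chosen with earlier results of these data known.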

Additional observations from a re-analysis of the deposited data

How the results depend on the processing

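No member was called in any comparison under the 16 alternatives of each fit, nor with RPP1 counted, and the smallest adjusted p a member reached was 0.0576, by edgeR for deletion against control without the library labelled deletion 2. For overexpression against control the median member log2 fold change was 0.027 with total counts in place of TMM, where the median of all genes was −0.05, and between 0.050 and 0.086 when each library was left out. For deletion against control it was 0.069 with total counts, where the median of all genes was −0.01, and between 0.064 (without deletion 3) and 0.129 (without deletion 1) when each library was left out. For overexpression against deletion it lay between −0.091 and 0.040 when each library was left out, and was above 0 without deletion 3; the cause was not tested. Log2 fold changes short of the threshold changed sign under some alternative for 21 of 45, 25 of 44 and 25 of 45 named genes for overexpression against control, deletion against control and overexpression against deletion. Pairs without overlap in balance (4, 7 and 1) numbered 9, 19 and 29 with the 3 libraries apart left out, where fewer libraries have to separate. With single libraries left out they numbered 6 to 14, 8 to 35 and 2 to 13. The first count was 11 without overexpression 1, 9 without overexpression 3, 8 without control 1 and 14 without control 2. The second was 35 without deletion 2, 11 without deletion 3, 16 without control 1 and 15 without control 2. The third was 2 without overexpression 1 or 2, 13 without overexpression 3, 3 without deletion 1 or 3 and 8 without deletion 2. With pairs under 95% identical alone, the first was 1 and the third was 0. The second then lost RPL42 and RPS24 and kept RPL17, RPL43, RPS9, RPS27 and RPS28. The member share in deletion 2 alone was 28.3%, and single libraries left out, an alternative added after seeing the data, gave 26.4 to 28.1%, 28.8 to 29.2% and 25.8 to 26.6% for overexpression, deletion and control. Counts of members without overlap with libraries left out were likewise added after seeing the data. Replicate numbers did not pair the libraries: the correlations of same-numbered deviations ran between −0.46 and 0.51. With the replicate number as a block, members called stayed at 0, the medians were 0.08, 0.11 and −0.04, and 27, 1 and 27 genes were called in all. Depth limits RPL15B most, with 9 counts in control 3, and 12 members had under 100 counts in some library.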
